A study of Apis mellifera with 12 samples.

Results

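The sex determination pathway of the honeybee was followed in the mRNA of whole female and male embryos at 3 ages. Its members were taken as every locus whose deposited gene name is *csd*, *fem*, *tra2*, *dsx* or *fru* alone, in any case of letters. This gave 7 of the 17621 loci in each library, namely 3 overlapping loci of *csd* and 1 locus for each of the other 4 genes. All 7 had a valid estimate in all 12 libraries and all 7 were among the 10105 loci tested.

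The embryos were wild-type *Apis mellifera carnica*, and their labels give ages of 10–15 h, then 25–40 h, then 55–70 h. For the youngest group the submitters' protocol gives an earlier start of collection than the label, and the label was used. Each sex had 2 libraries at each age. Each library was made from poly(A) RNA of a pool of 100 embryos at 10–15 h, 60 at 25–40 h and 30 at 55–70 h, taken from 3 mothers. Diploid female embryos came from naturally mated queens and haploid male embryos from unmated queens treated with CO2, so that sex, ploidy and the kind of mother cannot be told apart. Nothing in the labels says that the 2 pools of a group were collected separately, so that a p-value measures no more than the scatter of these 12 libraries, part of which may be technical. In such bulk samples, fewer cells expressing a gene and less RNA per cell cannot be told apart.

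In honeybees, sex is set by *csd* (*complementary sex determiner*): a pair of different alleles gives an active Csd protein and a female, and the single allele of an unfertilised egg gives a male. Csd directs female splicing of *fem* (*feminizer*), and the Fem protein, a relative of *Drosophila* Transformer, maintains it. With the RNA-binding protein Tra2, Fem also directs female splicing of *dsx* (*doublesex*), which encodes a DM domain transcription factor. In *Drosophila*, the same kind of splicing control acts on *fru* (*fruitless*), a transcription factor gene of male courtship.

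Each of these switches acts on splicing, but a locus has a single value per library that pools all of its splice forms. The forms of *dsx* were told apart in the study by RT–PCR with 1 primer in a shared part of the transcript and 1 primer in a part used by a single sex. These primers are shown because they mark the difference that the locus values cannot resolve. The guide RNA with which the study mutated *fem* is given with them, and its capitals mark the 12 bases next to the PAM, where Cas9 tolerates mismatches least.
dsx, shared forward primer: ctattggagcacagtagcaaacttg
dsx, female reverse primer: gaaacaattttgttcaaaatagaattcc
dsx, male reverse primer: ggctacgtatgtttaggaggacc
fem, guide RNA: gcacuaacUUGAGUACCUUC
Values are FPKM, the fragments of a locus normalised to the length of its transcripts and to the fragments mapped in the library, as the authors deposited them. Each comes with a lower and an upper confidence bound. Because FPKM are scaled to transcript length, levels of different genes can be set side by side, but only roughly. This holds less where a value lies outside its own bounds.

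The libraries had comparable depth. Their relative depth, read from the width of the bounds, was 0.880 to 1.23, and 7392 to 11048 loci reached 1 FPKM. The 2 libraries of a group correlated across loci, which are not independent replicates, with r of 0.936 to 0.988, lowest in males at 55–70 h. In each library, 23.3% to 28.7% of the loci had an FPKM outside its own bounds. Summed markers of muscle (3 loci) reached 2107 to 2200 FPKM in females and 849 to 2511 FPKM in males at 55–70 h. Those of the germ line (4 loci) were 184 to 186 FPKM in females and 595 to 628 FPKM in males at 10–15 h, most of it *vas*. Those of patterning (10 loci) were 760 to 1021 FPKM in females and 1392 to 1603 FPKM in males at 25–40 h. Marker symbols were matched in any case of letters. *H* and *Cad* in the patterning sum and *NOS* in the germ line sum may thus be genes other than *h*, *cad* and *nos*. The part of these markers in the values of the pathway loci was not tested. *Vg*, the adult yolk protein gene, was at or near 0 in every library.

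**Figure D1:**
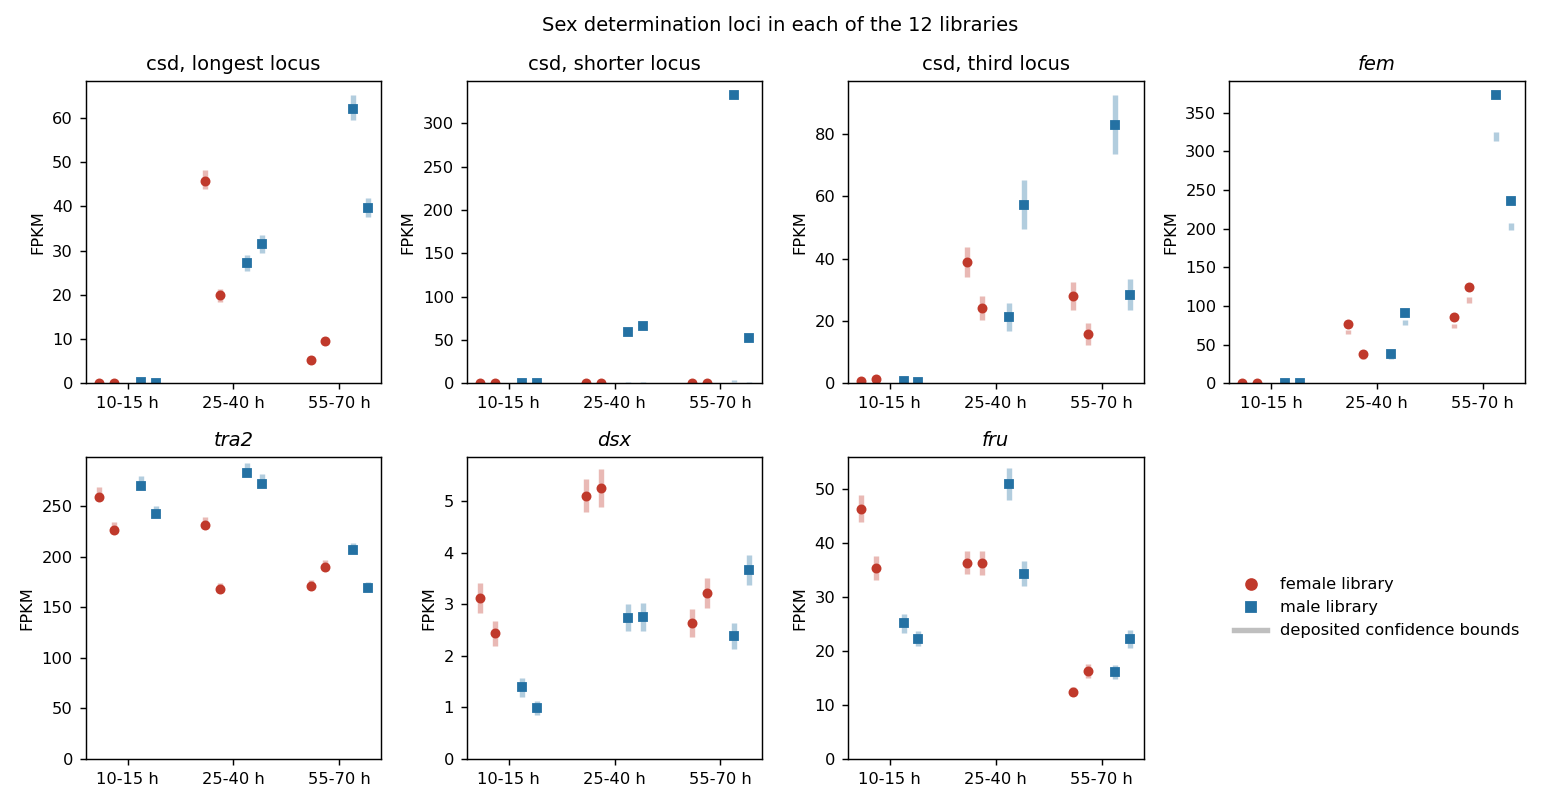
FPKM of the 7 loci (linear vertical axes starting at 0, each on its own scale) in each of the 12 libraries by age, with female libraries as red circles, male libraries as blue squares and the deposited confidence bounds as pale bars. *fem*, the longest and the third *csd* locus lay between 0.0417 and 1.25 FPKM at 10–15 h and between 5.33 and 372 FPKM later, while *tra2* stayed between 168 and 283 FPKM.

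The signal gene *csd* was nearly silent at 10–15 h and was on in both sexes at 25–40 h. Its longest locus then fell in females, and this course differed between the sexes. The longest *csd* locus (chromosome 3, 11135135 to 11146228 in the files' coordinates) had 0.0417 and 0.0433 FPKM in females and 0.181 and 0.0650 FPKM in males at 10–15 h. The females reached 45.8 and 19.9 FPKM and the males 27.2 and 31.4 FPKM at 25–40 h, and the ranges of the sexes overlapped. In the oldest embryos it had 5.33 and 9.51 FPKM in females and 62.0 and 39.7 FPKM in males, so that both female libraries lay below both male ones. Bounds at 10–15 h spanned ± 125% of the value in both female libraries, so those levels are not separable from 0.

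Differences were tested with limma on log2(FPKM + 1), a scale that understates changes of low loci, with adjustment over all 10105 loci and a threshold of 0.05. Between 10–15 h and 25–40 h the longest *csd* locus rose by 4.91 in females (standard error 0.39, adjusted p = 1.79e-06) and by 4.75 in males (standard error 0.39, adjusted p = 4.87e-06). Between 25–40 h and 55–70 h it fell by 1.94 in females (standard error 0.39, adjusted p = 0.00269). In males it changed by 0.74 over that step, which missed the threshold (adjusted p = 0.146). The difference between these changes, tested itself, was −2.68 (standard error 0.55, adjusted p = 0.0168), and sex and age interacted over all 3 ages (F = 14.9, adjusted p = 0.0211 from limma). The locus was lower in females at 55–70 h, with a difference of −2.63 (standard error 0.39, adjusted p = 0.0220). Most marker sums were also lower in females at this age, without overlap. Those of fat body (5 loci, of which *Vg* was near 0) were 18.4 to 32.6 FPKM in females and 85.1 to 105.1 FPKM in males. Those of patterning were 253 to 273 FPKM in females and 311 to 319 FPKM in males. Germ line sums were 40.8 to 52.4 FPKM in females and 64.8 to 80.5 FPKM in males. Sums of neurons (2 loci) were 4.69 to 6.27 FPKM in females and 8.37 to 9.44 FPKM in males. Only the muscle sums overlapped. The part of these markers in the difference was not tested.

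The fall in females was called in all 12 fits that left out 1 library, but not when females of these ages were fitted alone (adjusted p = 0.0556). The difference between the changes ended without female 55–70 h replicate 1 (adjusted p = 0.0748), without male 25–40 h replicate 1 (0.0673) and with only the libraries compared (0.0720). The sex difference at 55–70 h ended with only the libraries compared (0.398), and without female 55–70 h replicate 1 (0.208) or male 55–70 h replicate 1 (0.0760). It also ended without male 10–15 h replicate 1 (0.0576) or 2 (0.0578). The interaction was called in 6 of the 12 fits, and not without a filter on low values (0.0518). It ended without female 10–15 h replicate 2 (0.0546), female 55–70 h replicate 1 (0.0850), male 10–15 h replicate 1 (0.0557) or 2 (0.0570), male 25–40 h replicate 1 (0.0648) or male 55–70 h replicate 1 (0.0604).

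The third *csd* locus (11143863 to 11147236), which shares 2366 base pairs with the longest, came on at the same age. It had 0.567 and 1.25 FPKM in females and 0.660 and 0.502 FPKM in males at 10–15 h. The females had 39.0 and 24.2 FPKM and the males 21.4 and 57.3 FPKM at 25–40 h. The oldest libraries had 28.0 and 15.8 FPKM in females and 82.9 and 28.4 FPKM in males. The sexes overlapped at 10–15 h and 25–40 h, and at 55–70 h the higher female library lay just below the lower male one. Its rise to 25–40 h was 4.08 in females (adjusted p = 8.19e-05 from limma) and 4.52 in males (adjusted p = 6.92e-05). Its difference at 55–70 h was −1.17 (standard error 0.55, adjusted p = 0.287) and its interaction of sex and age missed the threshold (adjusted p = 0.369). The difference lay between −1.93 and −0.42 with 1 library left out. Its change in females over the last step was −0.52 (standard error 0.55, adjusted p = 0.479), so that a fall was not detectable at this locus.

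The shorter *csd* locus (11143576 to 11146566) shares 2653 base pairs with the longest and 2704 with the third. Every female library, 6 in all, and the male libraries of 10–15 h list it at 0. Its male values were 59.3 and 65.9 FPKM at 25–40 h, then 332 and 52.2 FPKM in the oldest libraries. The upper bounds of these last 4 values were only 1.57, 1.74, 4.09 and 1.38 FPKM, so that each value stood far outside its own bounds, and no fold change is given against a group at 0. Females carry a pair of *csd* alleles and males 1, and whether alleles unlike the reference genome moved reads between or out of these loci was not tested.

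Because the 3 loci overlap, fragments can be assigned to one or another of them, and their FPKM were also summed. The sum at 25–40 h was 84.8 and 44.1 FPKM in females and 108 and 155 FPKM in males. At 55–70 h it was 33.3 and 25.3 FPKM in females and 477 and 120 FPKM in males. At both ages the 2 female sums lay below the 2 male sums. Over the 3 ages the mean difference was −1.30 on the log2 scale, with an exact two-sided permutation p = 0.0648. It passed the threshold without female 10–15 h replicate 2 (−1.38, exact permutation p = 0.0278). Exchanging the sexes within ages allows no p below 0.00926. Without the shorter locus, a choice made after seeing the data, the sums at 25–40 h overlapped, with 84.8 and 44.1 FPKM in females and 48.6 and 88.7 FPKM in males. The later sums were then 33.3 and 25.3 FPKM in females and 145 and 68.1 FPKM in males, which did not overlap. The mean difference over the ages was −0.56 (exact permutation p = 0.213).

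Transcripts of *fem* (chromosome 3, 11113282 to 11123371), the gene that holds the female state, came on in both sexes with *csd* but did not fall afterwards. It had 0.257 and 0.213 FPKM in females and 0.660 and 0.360 FPKM in males at 10–15 h. The females had 76.4 and 37.7 FPKM and the males 38.4 and 91.0 FPKM at 25–40 h, with overlap between the sexes. The older females had 85.6 and 124 FPKM and the older males 372 and 236 FPKM at 55–70 h, so that both male libraries lay above both female ones. All 8 values of the later ages exceeded their own upper bounds, by the most in absolute terms in male 55–70 h replicate 1 with 372 FPKM against an upper bound of 325 FPKM.

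The rise of *fem* to 25–40 h was 5.47 in females (standard error 0.44, adjusted p = 1.97e-06 from limma) and 5.32 in males (standard error 0.44, adjusted p = 5.11e-06). From there to 55–70 h it rose by a further 2.30 in males (standard error 0.44, adjusted p = 0.00158), and these calls held in all 12 fits that left out 1 library. The change of 0.93 in females missed the threshold (adjusted p = 0.117), and was called without female 25–40 h replicate 1 (1.43, adjusted p = 0.0471). The difference between these changes was −1.38 (standard error 0.62, adjusted p = 0.188), so a difference between the sexes in the later course of *fem* was not shown. The sex difference of −1.51 at 55–70 h missed the threshold as well (standard error 0.44, adjusted p = 0.137). The mean difference over the 3 ages was −0.65 (adjusted p = 0.114 and exact permutation p = 0.0741). It was called when libraries were rescaled to the same sum (−0.76, adjusted p = 0.0442) or without female 25–40 h replicate 1 (−0.81, adjusted p = 0.0407).

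The balance of *fem* and the longest *csd* locus within a library moved with age. This ratio was chosen after the values were seen and is given without a test. The FPKM of *fem* divided by that of the longest *csd* locus was 1.67 and 1.90 in females, against 1.41 and 2.90 in males, at 25–40 h. It was 16.05 and 13.0 in females, against 6.01 and 5.94 in males, at 55–70 h. Both sexes thus had more *fem* relative to the longest *csd* locus at the later age. The female ratios lay above the male ones then, while they lay within the male range at 25–40 h. The third *csd* locus over the longest was 5.25 and 1.66 in females, against 1.34 and 0.716 in males, at 55–70 h. The ratios of *fem* to the longest locus therefore do not stand for *csd* as a whole.

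*tra2* (chromosome 11, 8692618 to 8698663), whose product is the splicing partner of Fem, was abundant at every age, the first included. It had 260 and 227 FPKM in females and 271 and 242 FPKM in males at 10–15 h. Females had 232 and 168 FPKM and males 283 and 272 FPKM at 25–40 h. Females had 171 and 190 FPKM and males 207 and 169 FPKM at 55–70 h. The sexes overlapped at the first and last ages and were apart only at 25–40 h. Its bounds were narrow, at ± 1.85% to ± 2.52% of the value, and the libraries of a group differed by more than that.

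The sex difference of *tra2* at 25–40 h was −0.49 (standard error 0.21, adjusted p = 0.154 from limma). The mean over the ages was −0.21 (adjusted p = 0.260 and exact permutation p = 0.0926). The 25–40 h difference was called when libraries were rescaled to the same sum (−0.70, adjusted p = 0.0353) or without female 25–40 h replicate 1 (−0.72, adjusted p = 0.0473). The averaged one turned to 0.01 after median-ratio scaling. Between 25–40 h and 55–70 h *tra2* fell by 0.57 in males (standard error 0.21, adjusted p = 0.0462). This call held in 4 of the 12 fits that left out 1 library. It ended without either male library of any age (highest adjusted p 0.217, without male 55–70 h replicate 2) or either female 55–70 h library (0.0557 each), and with only the libraries compared (0.0574). The male fall also ended with a minimum mean of 5 FPKM (limma adjusted p = 0.0519) and without the variance trend (0.0749). In females *tra2* changed by −0.13 (adjusted p = 0.661), and the difference between the sexes in this change missed the threshold (0.44, adjusted p = 0.368). Within a library, *fem* over *tra2* was 0.330 and 0.224 in females, against 0.136 and 0.334 in males, at 25–40 h, and 0.500 and 0.651 in females, against 1.80 and 1.39 in males, at 55–70 h. By FPKM, males thus had more *fem* than *tra2* at the last age and females less.

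The output gene *dsx* (chromosome 5, 3103541 to 3195400, with 5 listed start sites) stayed low throughout and, at the first 2 ages, was higher in each female library than in each male one. It had 3.12 and 2.44 FPKM in females and 1.39 and 0.987 FPKM in males at 10–15 h. The females reached 5.11 and 5.26 FPKM and the males 2.74 and 2.75 FPKM at 25–40 h. The sexes overlapped at 55–70 h, with 2.64 and 3.22 FPKM in females and 2.38 and 3.67 FPKM in males. The bounds of the sexes did not overlap at the first 2 ages either. At 10–15 h the lowest female bound was 2.19 FPKM and the highest male bound 1.58 FPKM.

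The differences of *dsx* were 0.79 at 10–15 h (standard error 0.25, adjusted p = 0.0725 from limma) and 0.72 at 25–40 h (standard error 0.25, adjusted p = 0.0807), against −0.02 at 55–70 h (adjusted p = 0.982). Neither of the first 2 passed the threshold, and the interaction with age missed it as well (F = 3.25, adjusted p = 0.198). At 10–15 h the difference was called with a pseudocount of 0.1 (1.16, adjusted p = 0.0461). It was also called after rescaling to the same sum (0.82, adjusted p = 0.0453) or by median ratios (1.10, adjusted p = 0.0183). The average over the ages, 0.50 (standard error 0.14), passed limma's threshold narrowly with an adjusted p of 0.0496. The exact permutation test gave p = 0.0370, or 0.185 adjusted over the 6 loci with values in both sexes. With no p below 0.00926 possible in that test, a locus could not pass this adjustment on its own. The limma call ended with the replicate number as a block (adjusted p = 0.0711), with a pseudocount of 5 (0.0617), without a filter on low values (0.0731) and with loci of any status (0.0509). It held only without female 25–40 h replicate 1 or male 55–70 h replicate 2, and the other 10 fits that left out 1 library gave 0.0844 to 0.140.

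The *dsx* locus rose by 0.72 in females (standard error 0.25, adjusted p = 0.0261) and by 0.78 in males (standard error 0.25, adjusted p = 0.0206) between 10–15 h and 25–40 h, with no detectable difference between the sexes (−0.06, standard error 0.35, adjusted p = 0.936). Over the same step the median of all loci tested rose by 0.66 in females and 0.33 in males, so *dsx* in females moved little against it. With quantile normalization, which sets the median change of all loci near 0, the changes of *dsx* were −0.14 in females and −0.01 in males, and neither was called. Both calls also ended with median-ratio scaling (0.10 in females and 0.45 in males) and with rescaling to the same sum (0.34 in females and 0.61 in males). In females the call ended without 25–40 h replicate 1 (0.0643) or 2 (0.0707) or 10–15 h replicate 2 (0.140) of that sex. In males it ended without 25–40 h replicate 1 (0.0646) or 2 (0.0706) or 10–15 h replicate 2 (0.139). From 25–40 h to 55–70 h *dsx* changed by −0.66 in females (adjusted p = 0.0563) and by 0.08 in males (adjusted p = 0.809), and that difference was −0.74 (adjusted p = 0.205). The female fall was called under all 3 rescalings (−1.26 with adjusted p = 0.00240 under quantile normalization, −0.78 with 0.0300 by median ratios and −0.79 with 0.0237 at the same sum). It was also called with a pseudocount of 5 (0.0395), without the variance trend (0.0489) and without either male 55–70 h library (0.0337 each).

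*fru* (chromosome 9, 4006549 to 4073760), like *tra2*, was present from the first age, and it fell in both sexes at the last. It had 46.3 and 35.3 FPKM in females and 25.1 and 22.3 FPKM in males at 10–15 h, without overlap. The females had 36.3 and 36.2 FPKM and the males 50.9 and 34.3 FPKM at 25–40 h. The oldest libraries had 12.5 and 16.2 FPKM in females and 16.04 and 22.2 FPKM in males, with overlap at both later ages. The female libraries of 10–15 h and 25–40 h lay at much the same level, whereas the males lay higher at 25–40 h than at 10–15 h.

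*fru* rose by 0.80 between 10–15 h and 25–40 h in males (standard error 0.27, adjusted p = 0.0284 from limma), against a change of −0.15 in females (adjusted p = 0.645). The difference between these changes was −0.95 (standard error 0.39, adjusted p = 0.156), which missed the threshold. So did the sex difference at 10–15 h (0.75, standard error 0.27, adjusted p = 0.109), although it was called with median-ratio scaling (1.06, adjusted p = 0.0322). The male rise ended without male 10–15 h replicate 1 (adjusted p = 0.0749) or 2 (0.135) or male 25–40 h replicate 1 (0.204), and under all 3 rescalings of the libraries (0.27 to 0.56, adjusted p from 0.125 to 0.430). At the next step *fru* fell by 1.29 in females (standard error 0.27, adjusted p = 0.00355) and by 1.10 in males (standard error 0.27, adjusted p = 0.00699). The female fall was called in every fit that left out 1 library, and the male one in 10 of 12, ending without male 25–40 h replicate 1 (0.0738) or male 55–70 h replicate 1 (0.0581). The median of all loci moved the other way over this step, by 0.13 in females and 0.32 in males.

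**Figure D2:**
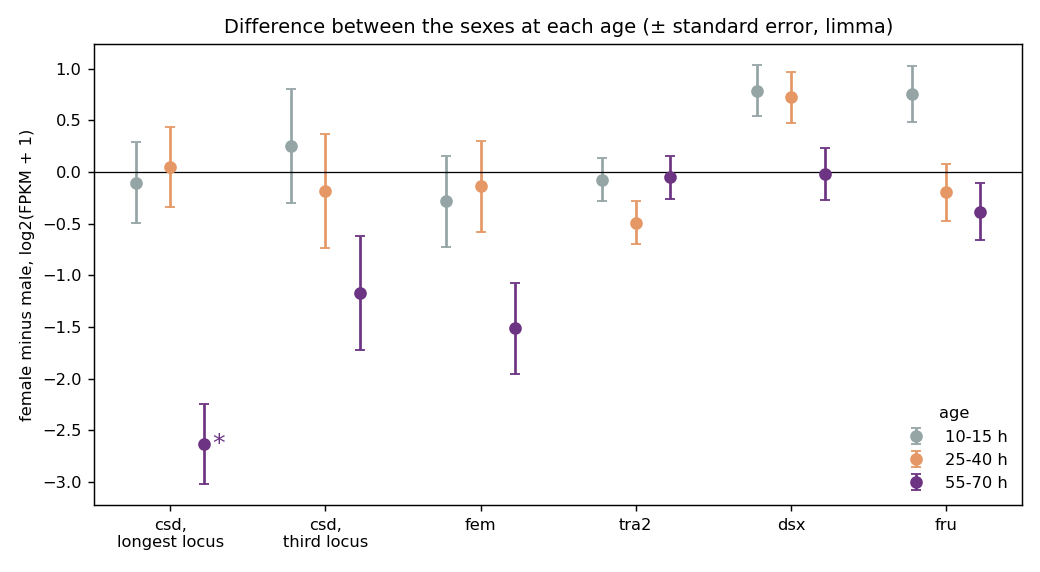
Female minus male difference in log2(FPKM + 1) (vertical axis) for 6 loci at each age, with bars of ± 1 standard error from limma and an asterisk at an adjusted p under 0.05. The longest *csd* locus at 55–70 h (−2.63) is the single marked point, and *dsx* lay at 0.79 and 0.72 at the first 2 ages.

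Over the 7 loci, 0 passed limma's threshold between the sexes at 10–15 h, where 9.07% of all loci tested did, and 2 had an unadjusted p under 0.05. In the permutation test over the ages 0 passed after adjustment and 1 (*dsx*) before it. That test allows no p below 0.00926, so a locus could not pass after adjustment on its own. The adjusted count therefore cannot show that sex differences were absent. One of 7 was lower in females at 25–40 h, against 6.68% of all loci. Of the 7, 2 were lower in females at 55–70 h, where 0.317% of all loci were called lower. One of these, and the single locus at 25–40 h, was the shorter *csd* locus with its values outside the bounds. Averaged over the ages 1 was higher (*dsx*) and 2 were lower (both *csd*), against 3.75% and 8.18% of all loci. The interaction of sex and age was called for 2 of 7 (both *csd*), against 10% of all loci. Both of these counts again include the shorter *csd* locus. The median difference of the 7 loci was 0.00 at 10–15 h, −0.19 at 25–40 h and −1.17 at 55–70 h, beside −0.11, −0.03 and −0.19 over all loci. The median locus was the shorter *csd* locus, listed at 0, at 10–15 h and the third *csd* locus at both later ages. Because the *csd* loci overlap, the 7 loci are not independent, and these counts and medians weight *csd* above the other genes.

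The averaged call of the longest *csd* locus (−0.90, standard error 0.23, adjusted p = 0.0340 from limma) held in 3 of the 12 fits that left out 1 library, with adjusted p of 0.0638 to 0.0988 in the other 9, and the exact permutation test gave p = 0.148. It held without male 55–70 h replicate 2, female 25–40 h replicate 1 or female 55–70 h replicate 2.

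Averaged over both sexes, 5 of the 7 loci rose from 10–15 h to 25–40 h (*fem*, *dsx* and the 3 *csd* loci), where 47.6% of all loci rose. The 3 *csd* loci belong to 1 gene, and the shorter one rose in males only, on values outside their own bounds. Between 25–40 h and 55–70 h 1 rose (*fem*) and 1 fell (*fru*), against 36.4% and 19% of all loci. Under each of the 3 rescalings 4 fell, since *tra2* (−0.65 to −0.36), the longest *csd* locus (−0.996 to −0.852) and *dsx* (−0.95 to −0.48) were then called as well. Without female 25–40 h replicate 2, *tra2* (−0.46, adjusted p = 0.0204 from limma) and the longest *csd* locus (−0.89, 0.0114) were called. Counted within the sexes, 4 rose in females and 6 in males at the first step, against 45.6% and 36.3% of all loci. At the second step 2 fell in females (the longest *csd* locus and *fru*), against 15.5% of all loci, while in males 1 rose (*fem*) and 2 fell (*tra2* and *fru*), against 32.7% and 13.5%. The difference between the sexes was negative and called for 1 locus in the first step (the shorter *csd* locus, against 3.29% of all loci) and for 1 in the second (the longest *csd* locus, against 5.54%). The call in the first step ended at the midpoint of the bounds.

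The order in which the genes came on was read as the first age at which both libraries of a sex reached 1 FPKM and, after 10–15 h, exceeded every 10–15 h library of either sex. RNA laid down by the mother and RNA made by the embryo cannot be told apart here, so this is an order of presence. By this description, *tra2* and *fru* in both sexes and *dsx* in females were on by 10–15 h. *fem*, the longest *csd* locus and the third *csd* locus came on at 25–40 h in both sexes, as did the shorter *csd* locus in males. *dsx* in males met the rule at no age, because 1 of its 10–15 h libraries had 0.987 FPKM and later male libraries did not all exceed the highest female library of 10–15 h (3.12 FPKM).

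**Figure D3:**
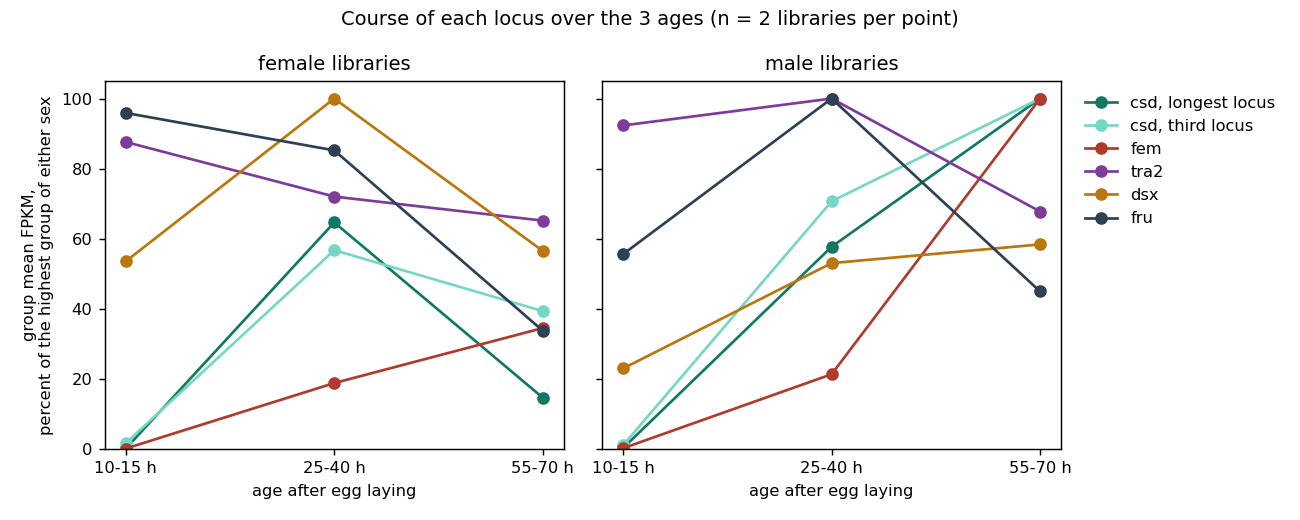
Group mean FPKM at each age as a percent of the highest group mean of either sex (vertical axis, from 0) for 6 loci, in female (left) and male (right) libraries, with 2 libraries per point. *tra2* started at 87.6% of its maximum in females and 92.3% in males, *fru* at 95.9% in females and 55.6% in males, *dsx* at 53.5% in females and 23.0% in males, and *fem*, the longest and the third *csd* locus at no more than 1.63%.

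The maxima fell at different ages. *fem* stood at 18.8% of its highest group mean in females and 21.3% in males at 25–40 h. The longest *csd* locus already stood at 64.6% in females and 57.7% in males then, and the third at 56.7% in females and 70.7% in males. Males at 55–70 h had the highest group means of *fem* and of all 3 *csd* loci, males at 25–40 h those of *tra2* and *fru*, and females at 25–40 h that of *dsx*. With 2 libraries per group, neighbouring groups in these orders often overlapped: for the longest *csd* locus, males and females at 25–40 h and males at 55–70 h did, and females at 55–70 h stood apart below them.

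Across all 12 libraries, the levels of *fem* and the third *csd* locus had a Pearson r of 0.96, *fem* and the longest *csd* locus 0.93, and the 2 *csd* loci 0.96 on the log2 scale. *tra2* correlated with *fem* at −0.50 and with *fru* at 0.58, and *dsx* with *fem* at 0.52. The points share the step between 10–15 h and the later ages, and the *csd* loci share sequence, so these values are descriptions of the 12 libraries only.

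The neighbourhood of the 2 genes was examined because *fem* and *csd* lie close together, with 11763 base pairs between the end of *fem* and the start of *csd*. A single other locus, LOC100578464 (11127492 to 11133605), lies between them. It had 0 and 0.0177 FPKM in females and 0.148 and 0.0530 FPKM in males at 10–15 h. The females reached 8.16 and 5.44 FPKM and the males 4.62 and 5.98 FPKM at 25–40 h. The oldest libraries had 4.46 and 6.55 FPKM in females and 24.3 and 15.1 FPKM in males at 55–70 h. Like *fem* and the longest *csd* locus, it overlapped between the sexes at 25–40 h and not at 55–70 h, where the males were higher.

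LOC100578464 rose to 55–70 h by 1.69 in males (standard error 0.30, adjusted p = 0.00102 from limma, called in all 12 fits that left out 1 library) and changed by −0.26 in females (adjusted p = 0.526). The difference between these changes was −1.95 (standard error 0.43, adjusted p = 0.0215), and it ended without female 55–70 h replicate 1 (adjusted p = 0.0919) or male 25–40 h replicate 1 (0.0784). It also ended with a pseudocount of 0.1 (0.0522) and with only the libraries compared (0.0924). Its sex difference at 55–70 h was −1.66 (standard error 0.30, adjusted p = 0.0459). This call held only without female 55–70 h replicate 2 or male 55–70 h replicate 2, and the other 10 fits that left out 1 library gave 0.0517 to 0.349. It also ended with the replicate number as a block (0.0752) and with only the 55–70 h libraries (0.510), with a pseudocount of 0.1 (0.120) and with a minimum mean of 5 FPKM (0.0908).

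The locus to the left of *fem*, LOC724886 (11098953 to 11111869), rose as steeply to 25–40 h, by 5.59 in females (adjusted p = 5.83e-08 from limma) and 4.66 in males (adjusted p = 3.51e-07). Its levels were 41.2 and 53.3 FPKM in females and 36.9 and 42.8 FPKM in males at 55–70 h, with overlap and a difference of 0.23 (adjusted p = 0.645). To the right of *csd*, LOC408733 (11150512 to 11226903) was high already at 10–15 h, with 177 and 157 FPKM in females and 371 and 279 FPKM in males. It had 74.0 and 138 FPKM in females and 170 and 189 FPKM in males at 55–70 h, a difference of −0.82 (adjusted p = 0.171). A locus with a pair of gene names, LOC100577718,LOC551408 (11111969 to 11171296), spans *fem*, LOC100578464 and *csd*. It had 93.2 and 82.5 FPKM in females and 102 and 79.9 FPKM in males at 55–70 h, a difference of −0.04 (adjusted p = 0.959). Strand use in the counting is not stated in the sources used here, so reads of this spanning locus and of the loci inside it may not have been told apart.

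**Figure D4:**
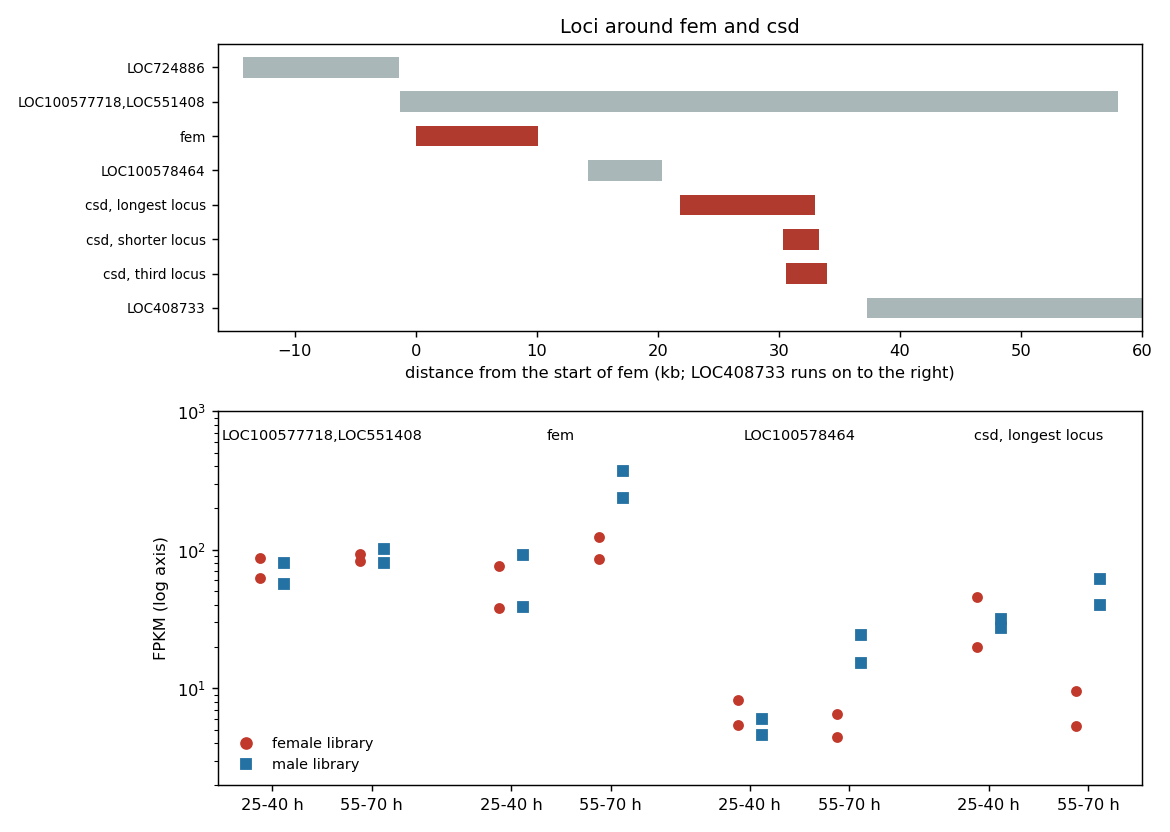
Upper panel: position of each locus around *fem* and *csd* as distance from the start of *fem* in kb (members red, other loci grey). Lower panel: FPKM (log axis) of the spanning locus, *fem*, LOC100578464 and the longest *csd* locus in each library of the later 2 ages, with female libraries (red circles) left of male ones (blue squares); the sexes are apart for the last 3 and overlap for the spanning locus at 55–70 h.

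For each locus, the 3 named genes with the most similar course over the 12 libraries were taken from 1899 loci with a single name, by the Pearson r of log2(FPKM + 1). Nearest to *fem* were *Pat1* (0.99), *Myo15* (0.99) and *wit* (0.99), a BMP type II receptor gene in *Drosophila*. Nearest to the longest *csd* locus were *BBIP1* (0.99), *twf* (0.98), encoding the actin-binding protein twinfilin, and *drk* (0.98), an adaptor of receptor tyrosine kinases. *drk*, for example, had group means of 68.8 FPKM in females and 57.5 FPKM in males at 25–40 h, and 32.1 FPKM in females and 63.5 FPKM in males at 55–70 h. The third *csd* locus was nearest to *mfrn* (0.98), *Dctn3* (0.98) and *mRpL30* (0.98).

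Nearest to *dsx* were *Ndufs7* (0.91), a respiratory complex I subunit, *Cox6c* (0.90), a cytochrome oxidase subunit, and *nrv2* (0.89), a sodium pump subunit. *Cox6c* stood at 5121 FPKM in females and 3141 FPKM in males at 25–40 h. *tra2* was nearest to *Bcas2* (0.93), *Pdk* (0.92) and *Nmt* (0.92), *fru* to *Csp* (0.90), *E(Pc)* (0.90) and *CstF-64* (0.88), and the shorter *csd* locus to *Gld* (0.92), *mud* (0.90) and *Dspp* (0.86). These r describe a like course in the 12 libraries and nothing more.

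Other splicing factors were examined because *csd*, *fem* and *tra2* act through the splicing machinery. Of 49 symbols, 14 matched a locus and 13 were tested. Between 10–15 h and 25–40 h 8 of the 13 rose and 1 fell, where 47.6% of all loci rose and 23.6% fell, with a median change of 0.64 beside 0.50 over all loci. From there to 55–70 h 2 rose and 5 fell, where 36.4% of all loci rose and 19% fell, with a median of −0.25 beside 0.23. *Rsf1*, a splicing repressor of the SR family in *Drosophila*, averaged 42.1 FPKM in females and 67.0 FPKM in males at 10–15 h and 267 FPKM in each sex at 25–40 h, a rise of 2.31 over both sexes (adjusted p = 1.19e-07 from limma). *U2af38*, the small subunit of the factor that recognises the 3′ splice site, rose by 0.87 to 25–40 h (adjusted p = 5.36e-04) and fell by 1.04 to 55–70 h (adjusted p = 2.49e-04), and the rise ended after median-ratio scaling.

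*Snf*, a component of the U1 and U2 snRNPs that takes part in sex determination in *Drosophila*, was the splicing factor with the lowest adjusted p between the sexes at 10–15 h. It averaged 1.65 FPKM in females and 9.66 FPKM in males at 10–15 h, and 115 FPKM in females and 87.9 FPKM in males at 25–40 h. The difference at 10–15 h was −2.10 (standard error 0.42, adjusted p = 0.0211), called in 9 of 12 fits that left out 1 library, and it ended without female 10–15 h replicate 1 or either male 10–15 h library (up to 0.146), without a filter on low values and with only the libraries compared. *Smb*, a core snRNP protein, was higher in females at 10–15 h by 0.77 (adjusted p = 0.0450) and at 25–40 h by 0.73 (adjusted p = 0.0397), calls that held in 2 and 3 of the 12 fits. Both calls ended with the replicate number as a block, without a filter on low values, without the variance trend and with only the libraries compared. The call at 10–15 h also ended with a pseudocount of 5 and with loci of any status, and the call at 25–40 h under all 3 rescalings.

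A second list held partners of *dsx*, other DM domain genes and homologues of *Drosophila* genes of dosage compensation and X-chromosome counting. Of its 32 symbols 8 matched, of which *fru* is a member described above and the other 7 were tested here. At 10–15 h 3 of the 7 were lower in females and 0 higher, where 7.23% of all loci were lower and 1.84% higher, with a median of −0.997 beside −0.11 over all loci. *msl-3*, a subunit of the *Drosophila* dosage compensation complex, averaged 9.96 FPKM in females and 37.1 FPKM in males at 10–15 h (−1.83, adjusted p = 0.0247 from limma). *mof*, the histone acetyltransferase of that complex, averaged 9.94 FPKM in females and 34.4 FPKM in males (−1.70, adjusted p = 0.0189), and *gro*, a co-repressor, 305 FPKM in females and 603 FPKM in males (adjusted p = 0.0325). All 3 calls held in 9 of 12 fits and ended without female 10–15 h replicate 2 or either male 10–15 h library (up to 0.164 for *mof*, 0.209 for *msl-3* and 0.239 for *gro*). They also ended with only the libraries compared, and those of *msl-3* and *gro* without a filter on low values. Of the 4 loci matched to germ line symbols, *vas* averaged 160 FPKM in females and 593 FPKM in males at this age. *aub* averaged 23.5 FPKM in females and 17.0 FPKM in males, and *NOS* and *Ago3* stood at 1.60 FPKM or less in either sex. *NOS* was matched to the symbol *nos* without regard to case and may be another gene. The part of germ line RNA in these calls was not tested.

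*da*, an E-protein transcription factor gene, averaged 65.7 FPKM in females and 27.7 FPKM in males at 25–40 h (1.21, adjusted p = 0.00442 from limma, called in all 12 fits that left out 1 library). This difference ended with only the libraries compared. At 55–70 h *da* averaged 70.9 FPKM in females and 86.8 FPKM in males, and its change to that age differed between the sexes by −1.50 (adjusted p = 0.0155). That call ended without male 25–40 h replicate 1 (0.0640), after median-ratio scaling and with only the libraries compared. *da* rose by 1.15 at the first step in females (adjusted p = 7.13e-04) and by 1.61 at the second step in males (adjusted p = 1.39e-04). The female rise ended after median-ratio scaling.

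The locus that holds *glu*, the eye development gene studied with this pathway, had 1913 and 1560 FPKM in females and 1535 and 1405 FPKM in males at 10–15 h, when *fem* and the longest *csd* locus were below 1 FPKM. It had 130 and 162 FPKM in females and 184 and 168 FPKM in males at 55–70 h. The value pools 3 gene names and all splice forms, and male 25–40 h replicate 1 is listed at 0 with a failed estimate, so the locus was not tested.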

How the data were processed

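Poly(A) RNA of pooled whole embryos was sequenced in 12 libraries (6 groups of 2). For each locus the authors deposited an FPKM, its confidence bounds and a flag for failed estimates. The submitters' notes list Cufflinks 2.2.1 and the aligners TopHat2 and Bowtie2 2.2.6. The sources used here give no genome build, parameters or strand setting, and coordinates are those of the files. Depth in reads is unknown. FPKM depend on the other transcripts of a library, so that scaling matters between ages. Members and gene lists were chosen with earlier results of these data known.

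Loci were kept where the 12 libraries averaged 1 FPKM or more and all had a valid status (10105 of 17621), and were fitted as log2(FPKM + 1) with limma 3.58.1 in R 4.3.3 (6 group means, variance trend, 6 residual and 4.42 prior degrees of freedom) and adjusted by Benjamini-Hochberg over all of them at 0.05. The fit was tested on simulated data. Changes within each sex were added after seeing the data. Single loci were also tested by exact permutation of sex within ages (216 arrangements). Named genes were the members, the loci around *fem* and *csd*, *glu*, the 3 named loci most like each member, and list members called, at most 4 per direction and comparison. Marker lists of patterning, muscle, neurons, germ line and fat body matched 7, 3, 1, 4 and 5 symbols. Same-numbered libraries did not deviate together (r −0.28 to 0.17, over 0.1 in 3 of 15 group pairs), so replicate numbers were not taken as pairs. Sequences came from the study's list of designed oligonucleotides.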

Additional observations from a re-analysis of the deposited data

Results flagged for a closer look

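The course of 2 of the 3 overlapping *csd* loci was called as different between the sexes, for the shorter of them on values outside their own bounds. For the longest locus, sex and age interacted (adjusted p = 0.0211 from limma), and the change to 55–70 h in females minus that in males was −2.68 on the log2(FPKM + 1) scale. The interaction held in 6 of the 12 fits that left out 1 library. For the shorter *csd* locus the interaction had an adjusted p of 0.00345 from limma and the difference between the changes to 25–40 h one of 0.00445. The locus passed the filter on low values only through its male libraries of the later ages, and both calls ended at the midpoint of the bounds. They are thus no support for a sex difference. The size of the difference is not given because every female library is listed at 0, and the male values lie outside their own bounds. For the third locus the interaction missed the threshold (adjusted p = 0.369).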

How the results depend on the processing

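Of the members called between the sexes, 0 at 10–15 h became 1 with a pseudocount of 0.1, 1 with rescaling to the same sum and 2 with median-ratio scaling. The count of 1 at 25–40 h became 2 when rescaled to the same sum, and 0 at the midpoint of the bounds or with only the libraries compared (1 to 2 with 1 library left out). The count of 2 at 55–70 h became 1 at the midpoint, 0 with only the libraries compared and 1 without the shorter *csd* locus (1 to 2 with 1 library left out). The count of 3 averaged over ages became 1 without a filter (1 to 4 with 1 library left out). The 2 changed to 55–70 h became 5 (1 higher and 4 lower) under each of the 3 rescalings (2 to 4 with 1 library left out), and the 2 interactions became 1 without a filter or at the midpoint (1 to 2 with 1 library left out). The *csd* sum passed its threshold with a pseudocount of 5 (−1.27, exact permutation p = 0.0463), and without female 10–15 h replicate 2 (−1.38, 0.0278), and with 1 library left out lay between −1.63 and −0.97. For single loci 4 values turned, *dsx* to 25–40 h under quantile normalization (−0.0752 over both sexes, −0.139 in females and −0.0109 in males) and the averaged *tra2* difference after median-ratio scaling (0.0125). With the replicate number as a block, *dsx* averaged over the ages lost its call (0.50, adjusted p = 0.0711 from limma), as did LOC100578464 at 55–70 h (−1.66, 0.0752) and in its interaction (F = 10.3, 0.0529), the shorter *csd* locus in its change from 10–15 h to 55–70 h in females minus that in males, and *Smb* at 10–15 h and 25–40 h, and the block ended no other call given here. The replicate block, the variance trend and the fit of only the libraries compared were not run for the *csd* sum, which has no model. Rescaling took the median change of all loci to 25–40 h from 0.50 to between −0.03 and 0.20, and to 55–70 h from 0.23 to between −0.19 and −0.02. The causes of these shifts were not tested. Low loci, above all *dsx*, *csd* and *fem* at 10–15 h, are limited by depth.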
